A study of Caenorhabditis elegans with 12 samples.

Results

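The contrast between cadmium-exposed fourth-stage larvae (L4) and cadmium-exposed third-stage larvae (L3) of *Caenorhabditis elegans* is described here. The libraries were chosen by their titles, which name the stage and the Cd dose, and they were 6 of the 12 libraries of the series: 3 of exposed L4 and 3 of exposed L3. All 12 libraries came from N2 wild-type hermaphrodites that grew from arrested L1 larvae at 20 °C on *Escherichia coli* OP50. The exposed worms ate bacteria loaded with 20 µM CdCl2 and were collected after 47 h as L4 or after 27 h as L3. The 6 unexposed libraries, 3 of L4 and 3 of L3 at the same times with 0 µM CdCl2, served as the second, Cd-free estimate of the stage difference. Both exposed groups carried the same Cd treatment, but exposed L4 had eaten Cd for longer, so stage and length of exposure cannot be told apart within this contrast. No source used here says whether the 3 replicates of a group were separate cultures, so the p-values measure the spread between these libraries, which may be technical. One sample field names a Cd dose of 0 for the exposed libraries too, whereas their titles, descriptions and treatment fields give 20 µM, and these 3 fields were followed.

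Between the third and the fourth larval stage the hermaphrodite germ line switches from mitotic growth to meiosis, makes its stock of sperm and then turns to oocytes. At the same time the epidermis sheds its cuticle and secretes a new one, and collagen genes, hedgehog-related proteins and astacin proteases are transcribed in waves that recur with every moult. Yolk proteins are made in the intestine and taken up by oocytes, which is a trait of the adult hermaphrodite. Cd is met in this animal by metallothioneins, by Cd-responsive proteins of the intestine and by chaperones, while ferritins hold iron. Worms were measured whole, so fewer cells of a type and less RNA per cell cannot be told apart in any value below.

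Depth was high in both groups. Exposed L4 libraries held 32160427 to 44766672 counts in named genes, against 31072077 to 37796672 in exposed L3 libraries. The 10 most abundant genes took 4.68 to 5.74% of the counts in exposed L4, against 5.89 to 6.19% in exposed L3. Stage was the main axis of variation: the 3 exposed L4 libraries lay apart from the 3 exposed L3 libraries on the first principal component, with 96.4% of the variance. Exposed L4 replicate 1 stood apart from replicates 2 and 3 on the second component, which held 1.42%. Chi-square per degree of freedom over genes was 50.4 and 43.6 between exposed L4 replicate 1 and replicates 2 and 3, but 3.22 between replicates 2 and 3, against 12.2 to 20.3 between exposed L3 replicates. In replicate 1 the share of counts held by the 6 vitellogenin genes was 0.634 times the mean of replicates 2 and 3, and that of the oocyte genes was 0.793 times that mean. The share held by furrow collagens was 2.2 times, and that of moult genes 1.61 times, the mean of replicates 2 and 3. Values are therefore given per library. *rla-1*, the ribosomal stalk gene that the study used as its qPCR reference, had 1445, 1403 and 1449.9 CPM in exposed L4, against 1705, 1820.0 and 2012 CPM in exposed L3 (CPM, counts per 1000000 counts, scaled by TMM factors), a log2 fold change of -0.37 that was not called.

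Much of the transcriptome was differentially expressed. Of 16650 genes tested, 8011 (48.1%) passed an adjusted p of 0.05 in edgeR's quasi-likelihood test together with a log2 fold change of at least 1: 4250 (25.5%) were up-regulated and 3761 (22.6%) were down-regulated in exposed L4. These shares are the background against which every gene list below is read. With the adjusted p alone 13225 genes (79.4%) passed, and for 13693 genes (82.2%) the 3 exposed L4 libraries did not overlap the 3 exposed L3 libraries. Without exposed L4 replicate 1, 8504 genes were called, 4401 up and 4103 down. Scaling moved the balance: with upper-quartile scaling, which lowered the median log2 fold change over all genes to -0.35 from -0.01, 3433 genes were up-regulated and 5110 down-regulated. With library totals alone the split was 4106 up and 3943 down, and with RLE size factors it was 4529 up and 3382 down.

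**Figure D1:**
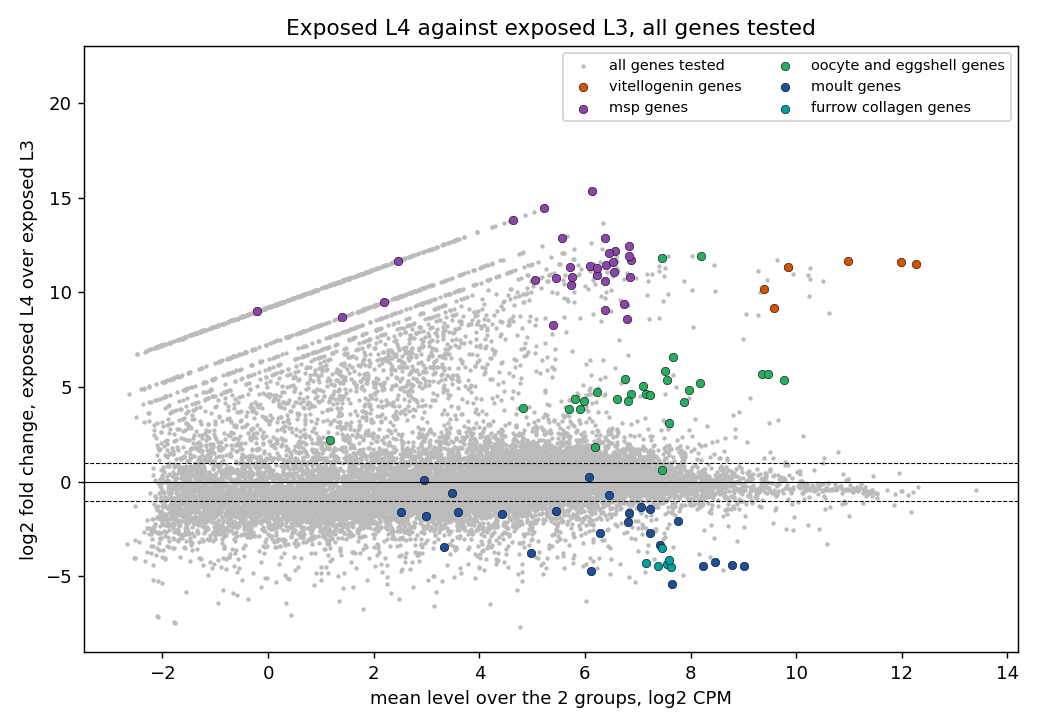
Log2 fold change of exposed L4 over exposed L3 (vertical) against the mean level in log2 CPM (horizontal) for the 16650 genes tested, 1 point per gene, with dashed lines at a log2 fold change of 1 and -1. The vitellogenin and msp genes lie far above the upper line, the oocyte genes other than *lin-41* lie above it, and the furrow collagen genes and most moult genes lie below the lower one. The slanted rows of points at upper left are genes with 0 or very few counts in exposed L3.

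The up-regulated side held much the larger fold changes. A log2 fold change of at least 5 was reached by 1565 up-regulated and 50 down-regulated genes, and one of at least 10 by 371 up-regulated genes and 0 down-regulated genes. Among the genes called, 373 up-regulated genes had 0 counts in all 3 exposed L3 libraries, whereas 5 down-regulated genes had 0 counts in all 3 exposed L4 libraries. At 50 CPM or more in exposed L4 and at most 3 counts over the 3 exposed L3 libraries there were 35 genes, and the reverse held for 0 genes.

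The 10 up-regulated genes with the largest fitted fold change at 50 CPM or more were all but silent in exposed L3. They included the major sperm protein genes *msp-53*, *msp-56*, *msp-113* and *msp-142*, the small sperm gene *nspd-2* and *sss-1*, with the unnamed genes W09C3.7, ZK354.2, Y69E1A.1 and W02B12.12. *msp-53* (chromosome IV, 5064643 to 5065153, WBcel235) had 143, 135 and 141 CPM in exposed L4, against 0 counts in all 3 exposed L3 libraries, which makes it at least 4932-fold higher against a floor of 3 counts over the group. On the same floor *msp-56* was at least 2619-fold, W09C3.7 at least 2309-fold and ZK354.2 at least 2033-fold higher. *sss-1* had 182, 151 and 156 CPM in exposed L4, against 0, 0.0319 and 0 CPM in exposed L3, 1 count in all at L3, and the ratio of its summed counts had a 95% counting interval that began at 3077.

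The 10 most down-regulated genes by the same rule were less extreme. *tba-8*, an alpha-tubulin gene (chromosome X, 9455485 to 9458348), had 0.548, 0.18 and 0.116 CPM in exposed L4, against 55.3, 52.1 and 54.4 CPM in exposed L3 (log2 fold change -7.66 ± 0.29, SE, edgeR adjusted p = 7.34e-09). F17B5.1 had 1.76, 1.67 and 1.43 CPM in exposed L4, against 142, 129 and 114.6 CPM in exposed L3 (log2 fold change -6.31 ± 0.13, SE, edgeR adjusted p = 2.11e-10). C05G5.7, whose exons overlap the let-7 microRNA gene on the same strand, had 1.61, 0.438 and 0.902 CPM in exposed L4, against 55.4, 37.3 and 60.8 CPM in exposed L3, a log2 fold change of -5.73. The other 7 were *fbn-1*, *dpy-6*, T20D4.12, K02E7.6, *wrt-10*, *cdh-7* and *ptr-10*, with log2 fold changes of -5.41 to -4.89.

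The genes with the most counts changed in identity, ranked by counts that also depend on gene length. Exposed L4 ranked *vit-6* first, followed by *eef-1A.1*, *vit-2*, *asp-1*, *unc-54*, *vit-5*, *eef-2*, *ant-1.1*, *rpl-3* and *rla-0*. Exposed L3 ranked *eef-1A.1*, the translation elongation factor, first, then *ctc-1*, *eef-2*, *asp-1*, *rpl-3*, *ctb-1*, *ant-1.1*, *rla-0*, *rpl-4* and *rpl-2*.

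All 6 vitellogenin genes, which encode the yolk lipoproteins, were up-regulated, with a median log2 fold change of 11.40 (all genes tested, -0.01). *vit-6* (chromosome IV, 8261134 to 8266462) had 6945, 11622 and 10971 CPM in exposed L4, against 3.41, 3.73 and 3.24 CPM in exposed L3 (log2 fold change 11.48 ± 0.26, SE, edgeR adjusted p = 3.1e-10). *vit-2* had 5640.5, 9504 and 9011 CPM in exposed L4, against 2.5, 3.09 and 2.32 CPM in exposed L3, and *vit-5* had 2703, 4957 and 4506 CPM in exposed L4, against 1.34, 1.43 and 0.976 CPM in exposed L3. No exposed L4 library came near the exposed L3 range, although replicate 1 was the lowest of the 3 for all 6 genes. Together the family held 1.88, 3.06 and 2.87% of the counts in exposed L4, against 0.00118, 0.00136 and 0.00106% in exposed L3. That difference had an exact two-sided permutation p of 0.1, the smallest that 3 against 3 libraries can give. *vit-1* changed the least, with 897, 1916 and 1748 CPM in exposed L4, against 2.22, 3.34 and 2.32 CPM in exposed L3 and a log2 fold change of 9.18. The vitellogenins are near-identical in part, so reads shared between *vit-3*, *vit-4* and *vit-5* could have been split between them.

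Oocyte and eggshell genes rose with them. Of 28 members tested, 27 were up-regulated and 0 down-regulated, with a median log2 fold change of 4.63. The largest fold changes belonged to the vitelline layer genes *perm-4* and *perm-2*: *perm-4* had 554, 626 and 585 CPM in exposed L4, against 0.252, 0.0956 and 0.0861 CPM in exposed L3 (log2 fold change 11.90 ± 0.21, SE, edgeR adjusted p = 7.78e-11), and *perm-2* had 314, 374 and 373 CPM in exposed L4, against 0.126, 0.0637 and 0.0861 CPM in exposed L3 (log2 fold change 11.82 ± 0.18, SE, edgeR adjusted p = 5.25e-11). Both were close to silent at exposed L3, with 16 and 10 counts in all.

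The eggshell components followed at intermediate folds from a measurable L3 level. *cbd-1*, a chitin-binding protein of the vitelline layer, had 1330.2, 1966 and 1846 CPM in exposed L4, against 38.1, 42.5 and 43.4 CPM in exposed L3 (log2 fold change 5.37 ± 0.16, SE, edgeR adjusted p = 1.78e-09). *cpg-1* and *cpg-2*, the chondroitin proteoglycans of the eggshell, had log2 fold changes of 5.68 and 5.69. *rme-2*, the yolk receptor of the oocyte, had 449.6, 637 and 607 CPM in exposed L4, against 15.2, 15.96 and 15.1 CPM in exposed L3 (log2 fold change 5.19 ± 0.15, SE, edgeR adjusted p = 1.19e-09). The RNA-binding regulators of oocyte maturation and maternal mRNA were up-regulated too: *puf-5* by 6.59, *oma-2* by 4.61 and *oma-1* by 4.34 on the log2 scale. *mei-1*, the katanin subunit of the meiotic spindle, had 97.8, 123 and 121 CPM in exposed L4, against 29.4, 32.1 and 32.8 CPM in exposed L3, a log2 fold change of 1.86. *lin-41*, which has roles in both the epidermis and the oocyte, was the 1 member not called, with 151, 246 and 239 CPM in exposed L4, against 129, 152 and 139.9 CPM in exposed L3 (log2 fold change 0.60). The list held 0.911, 1.18 and 1.12% of the counts in exposed L4, against 0.0485, 0.0516 and 0.0471% in exposed L3 (exact permutation p = 0.1).

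The major sperm protein genes were at or near 0 counts in exposed L3. All 31 major sperm protein genes tested were up-regulated, with a median log2 fold change of 11.29, or 10.89 when the 5 genes with 0 counts in exposed L3 were set at their bound. The major sperm protein is both the cytoskeletal protein of the amoeboid sperm and the signal that sperm send to oocytes. *msp-10* had 54.7, 47.3 and 46.6 CPM in exposed L4, against 0 counts in exposed L3, so it was at least 1735-fold higher. The family held 0.455, 0.38 and 0.389% of the counts in exposed L4, against 0.00031, 0.000315 and 0.000267% in exposed L3. Replicate 1 was the highest exposed L4 library for this family, the reverse of its place for the yolk genes. The msp genes are near-identical copies, so their single values depend on how shared reads were counted, which the sources used here do not say.

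Of 51 further spermatogenesis genes tested, 48 were up-regulated and 0 down-regulated (median log2 fold change 7.94). *gsp-3*, a protein phosphatase that sperm need to move, had 134, 109 and 106 CPM in exposed L4, against 0.0505, 0.0637 and 0 CPM in exposed L3 (log2 fold change 11.46 ± 0.26, SE, edgeR adjusted p = 3.24e-10). *spch-1*, which encodes a sperm nuclear basic protein, had 189, 137 and 138 CPM in exposed L4, against 0.0252, 0.0637 and 0.0574 CPM in exposed L3 (log2 fold change 11.58 ± 0.27, SE, edgeR adjusted p = 3.15e-10). *spe-11*, the paternal factor that the embryo needs, had 72.8, 57.4 and 59.4 CPM in exposed L4, against 0.0505, 0 and 0.0574 CPM in exposed L3. The 3 exposed L3 libraries held between 4 and 5 counts in all for each of these 3 genes. *spe-44*, a transcription factor that acts at the start of the sperm programme, was less changed, with 20.7, 24.7 and 23.9 CPM in exposed L4, against 3.91, 3.54 and 3.93 CPM in exposed L3 (log2 fold change 2.60 ± 0.13, SE, edgeR adjusted p = 5.1e-08). *spe-9*, which sperm need to fertilise the oocyte, had 7.64, 5.28 and 5.46 CPM in exposed L4, against 0.757, 1.24 and 1.18 CPM in exposed L3 (log2 fold change 2.54). The 3 members not called were *spe-48* (log2 fold change 0.57), *spe-29* (-0.34) and *nspd-11*.

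Of 20 genes that decide between sperm and oocyte fate, 5 were up-regulated (25%, about the 25.5% of all genes), 2 were down-regulated (10%, against 22.6%) and 13 were not called. *gld-1*, the translational repressor of the meiotic germ line, had 685, 902 and 872 CPM in exposed L4, against 72.2, 70.3 and 70.8 CPM in exposed L3 (log2 fold change 3.53 ± 0.12, SE, edgeR adjusted p = 3.25e-09). *fog-2*, its partner in allowing hermaphrodite sperm, had 17.9, 25.9 and 25.7 CPM in exposed L4, against 5.9, 5.73 and 5.74 CPM in exposed L3 (log2 fold change 2.001), and *fem-3*, which promotes sperm fate, had 35.0, 46.6 and 48.1 CPM in exposed L4, against 8.7, 6.98 and 7.72 CPM in exposed L3 (log2 fold change 2.47). *daz-1*, an RNA-binding gene of oogenesis, had a log2 fold change of 2.196.

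Against these stood *fog-3* and *fog-1*, which specify the sperm fate itself. *fog-3* had 1.73, 1.6 and 1.73 CPM in exposed L4, against 16.40, 12.997 and 14.1 CPM in exposed L3 (log2 fold change -3.10 ± 0.16, SE, edgeR adjusted p = 5.11e-08). *fog-1* had 14.3, 18.1 and 16.9 CPM in exposed L4, against 34.4, 35.1 and 31.4 CPM in exposed L3, with a log2 fold change of -1.03 that fell short of 1 in size with RLE size factors, with DESeq2, with no filter, without exposed L4 replicate 1 (-0.93) and without exposed L3 replicate 2 (-0.999), so 1 member rather than 2 was then called lower. Reads of *fog-1* cannot be told apart from those of *rom-5*, an overlapping gene on the other strand, because strand use in counting is not given in the sources used here.

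Meiotic genes were up-regulated nearly throughout. All 19 genes of the chromosome axis, the synaptonemal complex and the pairing centres were up-regulated, with a median log2 fold change of 1.73 and a range of 1.30 to 4.31. *him-3*, an axis protein, had 93.2, 100.4 and 98.6 CPM in exposed L4, against 20.8, 20.8 and 21.1 CPM in exposed L3 (log2 fold change 2.22 ± 0.08, SE, edgeR adjusted p = 4.98e-09). *syp-4*, a central-region protein of the synaptonemal complex, had 109, 134 and 133 CPM in exposed L4, against 25.9, 27.8 and 24.6 CPM in exposed L3 (log2 fold change 2.27 ± 0.11, SE, edgeR adjusted p = 3.02e-08), and *rec-8*, the meiotic cohesin, had 69.6, 92.6 and 94.1 CPM in exposed L4, against 27.8, 27.1 and 26.3 CPM in exposed L3. *lab-1*, which protects cohesion on the long arm, had the largest change, with 43.7, 38.4 and 39.1 CPM in exposed L4, against 1.74, 2.04 and 2.35 CPM in exposed L3. The groups did not overlap for any of these 4 genes, as was the case for 82.2% of all genes tested.

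Of 21 recombination genes, 18 were up-regulated and 0 down-regulated (median 1.56). *spo-11*, which makes the meiotic double-strand breaks, had 34.1, 36.3 and 35.9 CPM in exposed L4, against 8.5, 6.69 and 6.95 CPM in exposed L3 (log2 fold change 2.26 ± 0.12, SE, edgeR adjusted p = 8.67e-08), but its exons overlap *enpl-1* on the other strand, a gene with far more counts. *xnd-1*, which sets the distribution of crossovers, had 112, 148 and 136 CPM in exposed L4, against 23.2, 24.8 and 23.3 CPM in exposed L3 (log2 fold change 2.48). The strand exchange gene *rad-51* had 46.7, 55.0 and 55.1 CPM in exposed L4, against 26.6, 25.8 and 27.6 CPM in exposed L3, with a log2 fold change of 0.97 just under the threshold, and *him-5* had one of 0.50.

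The germ granule, a ribonucleoprotein body at the nuclear pores of germ cells, showed the same direction in 17 of 20 genes (0 lower; median 1.83). *cgh-1*, the germ line helicase that stores maternal mRNA, had 1077, 1408 and 1362 CPM in exposed L4, against 144, 153 and 149 CPM in exposed L3 (log2 fold change 3.11 ± 0.11, SE, edgeR adjusted p = 6.16e-09). *pgl-3* and *pgl-1*, which build the granule, had log2 fold changes of 2.48 and 1.81. *wago-1*, an Argonaute of the secondary small RNA pathway, had 375, 479 and 458 CPM in exposed L4, against 83.7, 78.9 and 80.4 CPM in exposed L3 (log2 fold change 2.43). *glh-1*, a Vasa-like helicase, was not called, with 327, 389.9 and 408 CPM in exposed L4, against 239, 242 and 238 CPM in exposed L3 (log2 fold change 0.65).

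Genes of DNA replication and mitosis were up-regulated too. Of 27 DNA replication genes 17 were up-regulated and 0 down-regulated (median 1.35). *orc-1*, the largest subunit of the origin recognition complex, had 102, 133 and 128 CPM in exposed L4, against 30.3, 28.6 and 29.8 CPM in exposed L3 (log2 fold change 2.03 ± 0.11, SE, edgeR adjusted p = 7.82e-08), and *mcm-7*, a helicase subunit, had 202, 286 and 269 CPM in exposed L4, against 64.1, 67.6 and 66.7 CPM in exposed L3. *pcn-1*, the sliding clamp, had a log2 fold change of 1.40, whereas the GINS subunit *sld-5* had 18.3, 22.96 and 23.6 CPM in exposed L4, against 19.7, 20.6 and 19.8 CPM in exposed L3, a log2 fold change of 0.11. Of 22 mitotic genes 18 were up-regulated and 0 down-regulated (median 1.39), and the 18 became 11 with upper-quartile scaling. The B-type cyclins led: *cyb-2.2* had 141, 174 and 164 CPM in exposed L4, against 6.89, 6.47 and 6.26 CPM in exposed L3 (log2 fold change 4.61 ± 0.11, SE, edgeR adjusted p = 4.28e-10), *cyb-1* had 309.6, 344 and 330.1 CPM in exposed L4, against 37.5, 38.3 and 36.4 CPM in exposed L3 and *cyb-3* had 271, 377 and 352 CPM in exposed L4, against 48.3, 49.2 and 46.95 CPM in exposed L3. Their partner kinase *cdk-1* changed by 1.21 on the log2 scale, and the microtubule regulator *cls-2* by 0.33, which was not called.

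Histone genes were mixed, with 7 of 33 tested up-regulated and 11 down-regulated (25.5 and 22.6% of all genes). The linker histone gene *his-24* had 20.9, 13.4 and 14.8 CPM in exposed L4, against 92.8, 92.0 and 85.3 CPM in exposed L3 (log2 fold change -2.47 ± 0.15, SE, edgeR adjusted p = 2.48e-07). The H3.3 variant genes *his-70* and *his-74* went the other way: *his-70* had 15.001, 10.6 and 11.8 CPM in exposed L4, against 0.177, 0.127 and 0.0287 CPM in exposed L3, and *his-74* had 97.1, 102 and 104.6 CPM in exposed L4, against 27.4, 28.3 and 29.6 CPM in exposed L3. The libraries were made from poly-A RNA, so the replication-dependent histone mRNAs, which carry no poly-A tail, were captured only in part, and copies of these genes share reads.

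**Figure D2:**
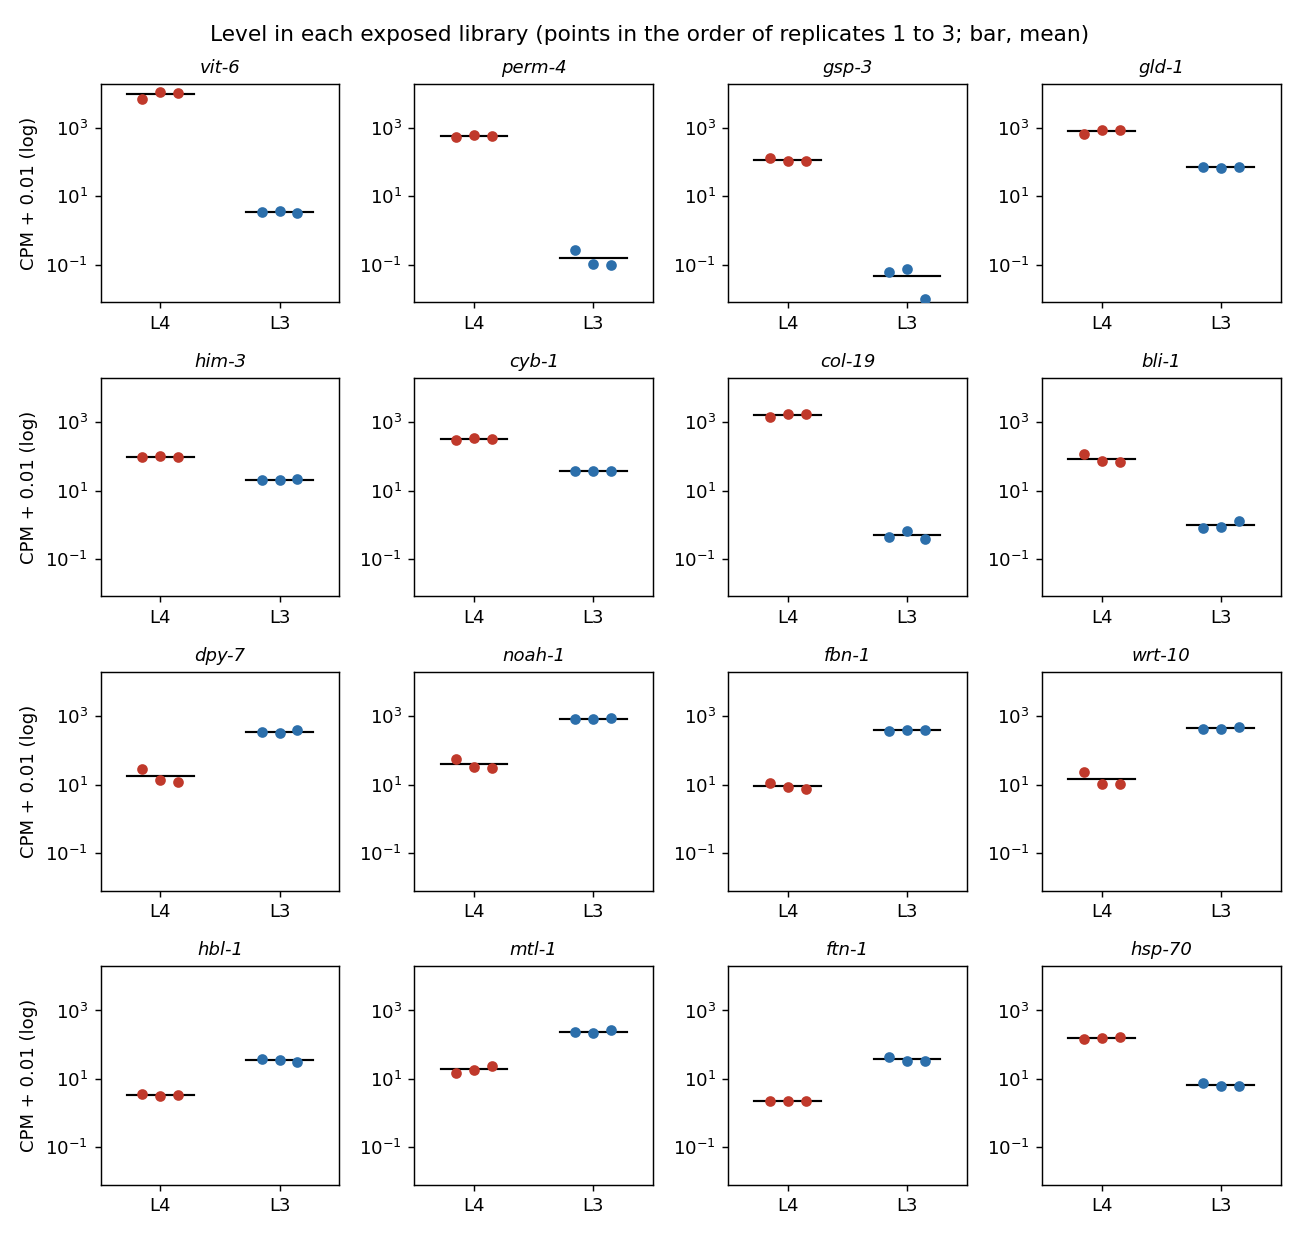
Level of 16 genes in each exposed library, as CPM plus 0.01 on a log axis. Points are replicates 1 to 3 from left to right, exposed L4 in red on the left of each panel and exposed L3 in blue on the right, with the mean as a bar. In none of the 16 panels do the groups overlap, as was the case for 82.2% of all genes tested. *vit-6*, *perm-4*, *gsp-3*, *gld-1*, *him-3*, *cyb-1*, *col-19*, *bli-1* and *hsp-70* are higher in exposed L4, and the other 7 genes are lower.

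Cuticle collagens changed in both directions. The cuticle is built of small collagens encoded by a large gene family, and sets of them are used at particular stages and at particular times of the moult. Of 128 *col* genes tested, 71 were up-regulated and 22 down-regulated in exposed L4 (55.5 and 17.2%, against 25.5 and 22.6% of all genes), with a median log2 fold change of 1.28. They held 5.97, 5.31 and 5.35% of the counts in exposed L4, against 2.3, 2.73 and 2.71% in exposed L3 (exact permutation p = 0.1).

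*col-19*, a marker of the adult cuticle (chromosome X, 421707 to 423033), had 1391, 1707 and 1703 CPM in exposed L4, against 0.429, 0.637 and 0.373 CPM in exposed L3 (log2 fold change 11.71 ± 0.19, SE, edgeR adjusted p = 6.59e-11). Its level, like those of the yolk and eggshell genes, shows transcripts usually linked to the adult in the libraries labelled L4. Several other collagens had the same form. *col-139* had 2649, 3019 and 3010.5 CPM in exposed L4, against 1.41, 2.13 and 2.01 CPM in exposed L3, *col-140* had 2120.3, 2530.4 and 2509 CPM in exposed L4, against 1.11, 1.31 and 1.38 CPM in exposed L3 and *col-81* had 2207, 2586 and 2565 CPM in exposed L4, against 0.807, 1.18 and 1.03 CPM in exposed L3. *col-124* had 2744, 3328 and 3304 CPM in exposed L4, against 6.15, 6.21 and 6.92 CPM in exposed L3 (log2 fold change 8.93 ± 0.14, SE, edgeR adjusted p = 5.23e-11). *col-122* and *col-7* had log2 fold changes of 10.69 and 9.57. Replicate 1 was the lowest of the exposed L4 libraries for *col-19*, *col-124*, *col-139*, *col-140* and *col-81*.

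The down-regulated members included one collagen that was abundant at exposed L3. *col-166* had 330.1, 267 and 267 CPM in exposed L4, against 2458, 3064 and 2873 CPM in exposed L3 (log2 fold change -3.28 ± 0.12, SE, edgeR adjusted p = 7.2e-09). *col-144* had 518, 345 and 354 CPM in exposed L4, against 1735, 2247 and 1953 CPM in exposed L3 (log2 fold change -2.29 ± 0.17, SE, edgeR adjusted p = 8e-07), and *col-41* had 25.6, 18.9 and 17.6 CPM in exposed L4, against 216, 236 and 356 CPM in exposed L3 (log2 fold change -3.70). *col-158* had the largest fall, of -5.41 on the log2 scale, at a low level (0.152, 0.283 and 0.208 CPM in exposed L4, against 8.8, 8.92 and 10.3 CPM in exposed L3). *col-93* and *col-160* were abundant in both groups: *col-93* had 1871, 2180.4 and 2163 CPM in exposed L4, against 761, 962 and 907 CPM in exposed L3 and *col-160* had 1356, 1715 and 1689 CPM in exposed L4, against 885, 1118 and 1042 CPM in exposed L3, and the second was not called. Related collagens can share reads, so the values of single paralogs are less certain than those of the family.

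All 6 furrow collagens, which line the circumferential furrows of the cuticle, were down-regulated, with a median log2 fold change of -4.31 and a narrow range of -4.50 to -3.50. *dpy-9* had 27.3, 11.6 and 11.4 CPM in exposed L4, against 359.5, 359.8 and 417 CPM in exposed L3 (log2 fold change -4.50 ± 0.32, SE, edgeR adjusted p = 6.71e-07). *dpy-7* had 28.1, 13.3 and 12.3 CPM in exposed L4, against 345, 335 and 390.5 CPM in exposed L3 (log2 fold change -4.32 ± 0.29, SE, edgeR adjusted p = 4.49e-07), and *dpy-2* had 21.7, 10.9 and 12.05 CPM in exposed L4, against 312, 296 and 353 CPM in exposed L3. In each of these 3 genes exposed L4 replicate 1 was above replicates 2 and 3, yet far below every exposed L3 library.

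The 13 collagens of body shape and of the struts separated into groups. The adult strut collagens *bli-1* and *bli-2* were up-regulated: *bli-1* had 116, 72.3 and 69.3 CPM in exposed L4, against 0.807, 0.828 and 1.26 CPM in exposed L3 (log2 fold change 6.47 ± 0.27, SE, edgeR adjusted p = 1.44e-08), and *bli-2* had 110.0, 53.8 and 57.4 CPM in exposed L4, against 4.54, 3.31 and 5.11 CPM in exposed L3. Another 8 members were down-regulated, among them *sqt-3*, with 394, 192 and 195 CPM in exposed L4, against 577, 571 and 766 CPM in exposed L3 (log2 fold change -1.29 ± 0.26, SE, edgeR adjusted p = 0.00105), *rol-6*, with 109, 51.1 and 53.3 CPM in exposed L4, against 133, 132 and 201 CPM in exposed L3 (log2 fold change -1.13), and *dpy-17*, with 1.13, 1.31 and 1.36 CPM in exposed L4, against 12.9, 14.6 and 13.98 CPM in exposed L3 (log2 fold change -3.44). The count of 8 fell to 5 without exposed L3 replicate 3, without exposed L4 replicate 2 and without exposed L4 replicate 3. The 3 that were not called, *dpy-13*, *dpy-5* and *dpy-4*, were abundant in both groups with overlapping libraries. *dpy-13* had 1234, 559 and 592 CPM in exposed L4, against 441, 496 and 809 CPM in exposed L3 (log2 fold change 0.45 ± 0.31, SE, edgeR adjusted p = 0.204).

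Among 12 genes that process and cross-link collagen, 1 was up-regulated and 3 were down-regulated (8.33 and 25%, against 25.5 and 22.6% of all genes). *phy-3*, a prolyl hydroxylase subunit, had 8.46, 7.08 and 8.05 CPM in exposed L4, against 0.0757, 0.0956 and 0.201 CPM in exposed L3 (log2 fold change 5.96 ± 0.29, SE, edgeR adjusted p = 3.79e-08). *dpy-31*, the procollagen C-proteinase, had 27.4, 30.2 and 29.4 CPM in exposed L4, against 101, 95.4 and 106 CPM in exposed L3 (log2 fold change -1.79 ± 0.08, SE, edgeR adjusted p = 2.99e-08). *pdi-2*, the disulfide isomerase that is also a prolyl hydroxylase subunit, had 1309.6, 1217 and 1203 CPM in exposed L4, against 2483, 2682 and 2773 CPM in exposed L3. Its log2 fold change of -1.09 became -0.98 with RLE size factors, and 1 gene of this list was then called lower in place of 3.

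Moulting genes were down-regulated nearly throughout. Of 25 regulators and effectors tested, 21 were down-regulated and 0 up-regulated, with a median log2 fold change of -2.07, against 22.6% of all genes called lower. The matrix proteins of the forming cuticle changed most. *fbn-1*, a fibrillin-like protein, had 11.4, 8.7 and 7.54 CPM in exposed L4, against 375, 394 and 400.0 CPM in exposed L3 (log2 fold change -5.41 ± 0.15, SE, edgeR adjusted p = 1.12e-09), although its exons overlap *upp-1* on the other strand. *noah-1*, a zona pellucida domain protein, had 55.4, 33.5 and 31.3 CPM in exposed L4, against 827, 833 and 869 CPM in exposed L3 (log2 fold change -4.40 ± 0.21, SE, edgeR adjusted p = 3.6e-08). The protease inhibitor *mlt-11* had 65.0, 35.4 and 33.6 CPM in exposed L4, against 968, 969 and 1037 CPM in exposed L3 (log2 fold change -4.47 ± 0.24, SE, edgeR adjusted p = 9.45e-08), and *let-653*, a lumen matrix protein, had 6.06, 5.3 and 4.32 CPM in exposed L4, against 130.1, 139.9 and 132 CPM in exposed L3.

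Transcription factors of the moult were among the genes that fell. *myrf-1*, which drives the larval moulting programme, had 37.7, 28.1 and 27.8 CPM in exposed L4, against 282, 334 and 314 CPM in exposed L3 (log2 fold change -3.31 ± 0.14, SE, edgeR adjusted p = 1.26e-08). *nhr-25* had 1.83, 1.44 and 1.8 CPM in exposed L4, against 18.97, 18.5 and 17.6 CPM in exposed L3, *blmp-1* had 21.4, 20.2 and 19.9 CPM in exposed L4, against 141, 133 and 132 CPM in exposed L3, and *lin-42*, the period homolog that oscillates with the moult, had 117, 66.1 and 66.4 CPM in exposed L4, against 317, 346 and 384 CPM in exposed L3. *nhr-23*, an orphan nuclear receptor at the head of the cycle, was not called, with 58.1, 72.8 and 68.1 CPM in exposed L4, against 106, 114 and 106 CPM in exposed L3 (log2 fold change -0.71). *mlt-10* and *bed-3* were not called either, with log2 fold changes of 0.26 and -0.59.

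**Figure D3:**
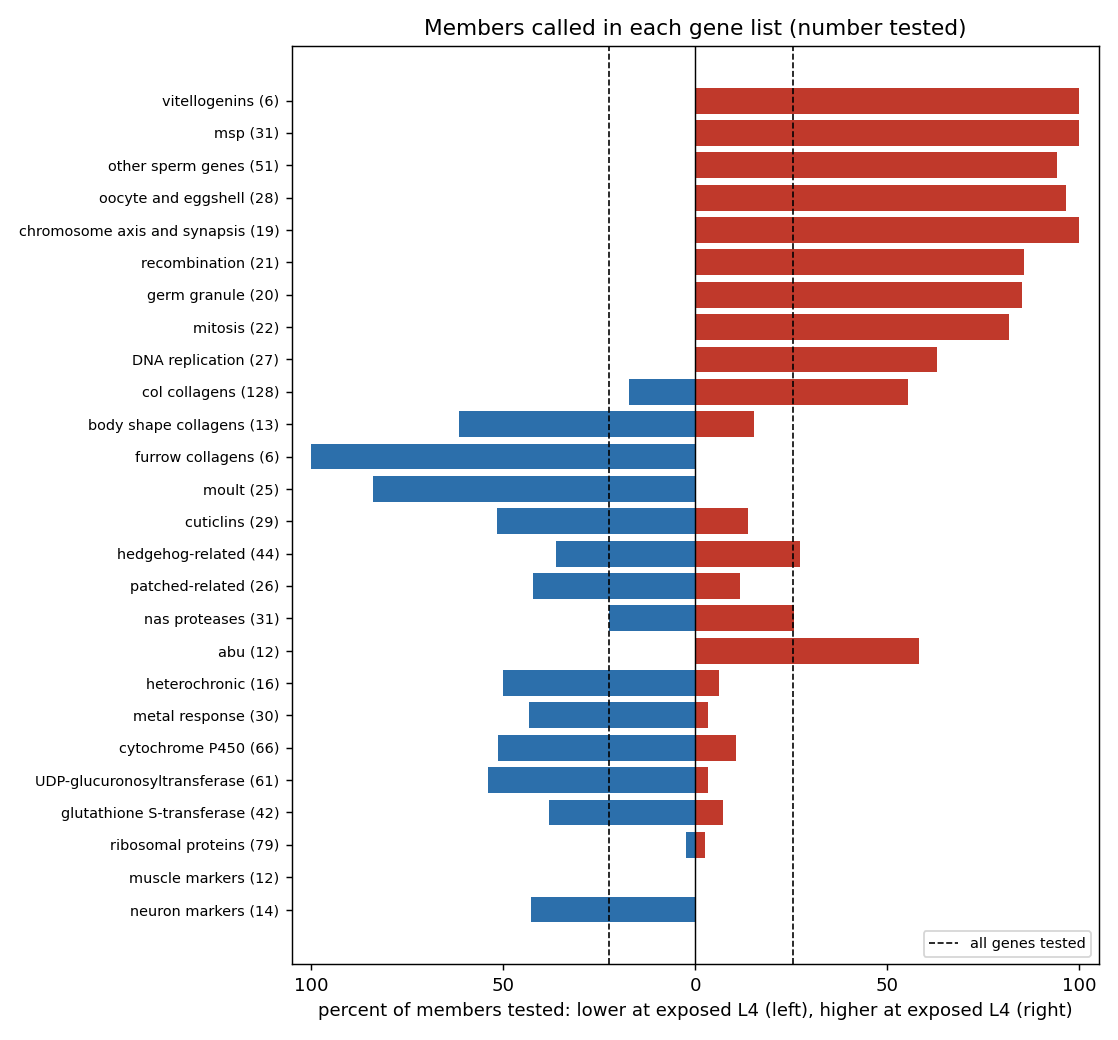
Percent of the members tested in each of 26 gene lists that were called higher (red, to the right) or lower (blue, to the left) in exposed L4 than in exposed L3; the number tested is in brackets and the dashed lines give the same shares of all genes tested, 25.5 and 22.6%. Gamete, meiotic and cell cycle lists reach far to the right with no bar to the left, furrow collagens and moult genes reach far to the left with no bar to the right, and the muscle markers have no bar.

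The hedgehog-related proteins, which are secreted by the epidermis and are tied to cuticle formation, were divided. Of 44 tested, 12 were up-regulated and 16 down-regulated (27.3 and 36.4%, against 25.5 and 22.6% of all genes). *wrt-10* had 23.6, 10.6 and 10.4 CPM in exposed L4, against 426, 427 and 485 CPM in exposed L3 (log2 fold change -4.92 ± 0.30, SE, edgeR adjusted p = 2.35e-07). *grd-13* had 4.47, 6.05 and 6.06 CPM in exposed L4, against 101, 129 and 128 CPM in exposed L3 (log2 fold change -4.42 ± 0.15, SE, edgeR adjusted p = 3.83e-09). In the other direction *grl-27* had 19.7, 11.5 and 11.15 CPM in exposed L4, against 0.126, 0.414 and 0.287 CPM in exposed L3 (log2 fold change 5.71 ± 0.37, SE, edgeR adjusted p = 3.59e-07), *grd-14* had 225, 127 and 135 CPM in exposed L4, against 36.5, 46.1 and 63.6 CPM in exposed L3 (log2 fold change 1.74) and *grl-16* had 796, 353 and 375 CPM in exposed L4, against 135, 177 and 248 CPM in exposed L3 (log2 fold change 1.44). The up-regulation of *grl-16* fell below the threshold without exposed L4 replicate 1, at a log2 fold change of 0.97.

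Of the 26 patched and patched-related receptors 3 were up-regulated and 11 down-regulated (11.5 and 42.3%, against 25.5 and 22.6% of all genes). *ptr-10* had 3.32, 2.32 and 1.69 CPM in exposed L4, against 80.3, 69.3 and 64.2 CPM in exposed L3 (log2 fold change -4.89 ± 0.21, SE, edgeR adjusted p = 1.74e-08). *ptc-1*, the patched homolog needed for germ line cytokinesis, had 339, 462 and 443 CPM in exposed L4, against 139, 154 and 146 CPM in exposed L3 (log2 fold change 1.504 ± 0.12, SE, edgeR adjusted p = 1.44e-06), and *ptr-2* had 144, 188 and 178 CPM in exposed L4, against 26.2, 25.7 and 30.1 CPM in exposed L3. Of 31 astacin metalloproteases of the *nas* family 8 were up-regulated and 7 down-regulated (25.8 and 22.6%), about the shares of all genes. *nas-20* had 22.5, 35.7 and 35.2 CPM in exposed L4, against 0.0757, 0.127 and 0.0861 CPM in exposed L3, and *nas-3* had 0.0609, 0.0257 and 0.0925 CPM in exposed L4, against 7.82, 7.39 and 5.4 CPM in exposed L3. Of 29 cuticlin genes 4 were up-regulated and 15 down-regulated (13.8 and 51.7%). *cut-4* had 22.7, 17.6 and 16.97 CPM in exposed L4, against 1.69, 2.61 and 3.62 CPM in exposed L3 and *cutl-9* had 0.822, 0.18 and 0.277 CPM in exposed L4, against 9.46, 7.49 and 8.09 CPM in exposed L3. The 4 up-regulated cuticlins became 2 without exposed L4 replicate 1 and 2 without exposed L3 replicate 1. Of 12 *abu* genes 7 were up-regulated and 0 down-regulated (58.3 and 0%). *abu-11* had 113, 68.0 and 72.7 CPM in exposed L4, against 9.38, 23.9 and 25.8 CPM in exposed L3 and *abu-1* had 61.0, 38.2 and 42.4 CPM in exposed L4, against 4.44, 13.9 and 10.9 CPM in exposed L3, with exposed L3 replicate 1 the lowest library for both.

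Genes of the heterochronic pathway, which times larval fates, were more often lower than higher. Of 16 tested, 8 were down-regulated and 1 was up-regulated (50 and 6.25%, against 22.6 and 25.5% of all genes). The 1 up-regulated gene became 0 without exposed L4 replicate 2. *hbl-1*, the hunchback homolog that holds back later fates, had 3.68, 3.14 and 3.42 CPM in exposed L4, against 37.1, 35.1 and 31.3 CPM in exposed L3 (log2 fold change -3.34 ± 0.13, SE, edgeR adjusted p = 7.71e-09). *lin-46*, which acts against it, had 1.8, 1.7 and 2.52 CPM in exposed L4, against 23.7, 18.3 and 16.6 CPM in exposed L3 (log2 fold change -3.27 ± 0.20, SE, edgeR adjusted p = 2.46e-07). The nuclear receptor *daf-12* had 26.2, 25.2 and 23.8 CPM in exposed L4, against 113, 123 and 113 CPM in exposed L3 (log2 fold change -2.22 ± 0.08, SE, edgeR adjusted p = 6.92e-09). *lin-29*, which triggers the larval-to-adult switch of the epidermis, had 12.9, 11.6 and 10.7 CPM in exposed L4, against 38.6, 45.1 and 41.2 CPM in exposed L3, but its exons overlap *hmg-12*, a gene with far more counts. The early regulators *lin-28* and *lin-14* were not called, with log2 fold changes of 0.88 and -0.53.

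Vulval genes changed in both directions. Of 28 tested, 10 were up-regulated and 9 down-regulated (35.7 and 32.1%, against 25.5 and 22.6% of all genes), and the 10 became 6 with upper-quartile scaling. *lin-3*, the epidermal growth factor ligand, had 34.9, 42.3 and 41.6 CPM in exposed L4, against 8, 13.3 and 11.7 CPM in exposed L3 (log2 fold change 1.85), and *apx-1*, a Notch ligand that is also a maternal product, had 89.6, 118 and 114 CPM in exposed L4, against 11.7, 11.3 and 10.04 CPM in exposed L3 (log2 fold change 3.28 ± 0.13, SE, edgeR adjusted p = 8.57e-09). The Notch ligand *lag-2* had 1.4, 0.695 and 0.717 CPM in exposed L4, against 3.78, 3.63 and 3.59 CPM in exposed L3 and its receptor *lin-12* had 8.37, 8.11 and 7.42 CPM in exposed L4, against 25.9, 28.1 and 29.3 CPM in exposed L3, log2 fold changes of -1.99 and -1.80. *lin-11*, a LIM homeobox factor of vulval cells, had 8.95, 7.49 and 7.98 CPM in exposed L4, against 2.22, 2.74 and 1.92 CPM in exposed L3 (log2 fold change 1.83). *sqv-5*, a chondroitin synthase that opens the vulval lumen, had 169.5, 232 and 218 CPM in exposed L4, against 35.8, 40.3 and 38.5 CPM in exposed L3 (log2 fold change 2.43 ± 0.12, SE, edgeR adjusted p = 5.32e-08). *egl-17*, a fibroblast growth factor, had 1.46, 1.31 and 1.25 CPM in exposed L4, against 2.4, 2.77 and 2.76 CPM in exposed L3, with a log2 fold change of -0.98 just short of the threshold. Exons of *lin-3* and *lin-12* overlap other genes with more counts on the other strand.

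Metal genes were more often lower than higher at exposed L4, and both groups had eaten Cd. Of 30 genes for the handling of Cd, zinc and iron, 13 were down-regulated and 1 was up-regulated (43.3 and 3.33%, against 22.6 and 25.5% of all genes). The median log2 fold change was -0.70. This list includes genes that the study itself named as responding to Cd in these samples, so its count is not independent evidence of a direction. *mtl-1*, a metallothionein (chromosome V, 6691371 to 6691863), had 15.2, 18.5 and 23.1 CPM in exposed L4, against 239, 216 and 263 CPM in exposed L3 (log2 fold change -3.66 ± 0.15, SE, edgeR adjusted p = 1.51e-08). *mtl-2*, the second metallothionein, had 239, 218 and 250.1 CPM in exposed L4, against 660.4, 537 and 715 CPM in exposed L3 (log2 fold change -1.44 ± 0.11, SE, edgeR adjusted p = 1.5e-06). For both genes the 3 exposed L4 libraries lay below the 3 exposed L3 libraries. The groups did not overlap, in either direction, for 82.2% of all genes tested.

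Of the iron and haem genes on the metal list, *ftn-1*, the intestinal ferritin, had 2.22, 2.16 and 2.24 CPM in exposed L4, against 44.9, 34.2 and 33.98 CPM in exposed L3 (log2 fold change -4.09 ± 0.15, SE, edgeR adjusted p = 6.87e-09), and *ftn-2*, the ferritin of many tissues, had 207, 224 and 229.5 CPM in exposed L4, against 629.5, 552 and 629 CPM in exposed L3 (log2 fold change -1.46 ± 0.09, SE, edgeR adjusted p = 1.96e-07). *hrg-1*, a haem transporter of the intestine, had 13.97, 14.2 and 15.6 CPM in exposed L4, against 168, 160.1 and 163 CPM in exposed L3 (log2 fold change -3.48 ± 0.09, SE, edgeR adjusted p = 4.61e-10). *cdf-2*, a zinc transporter of intestinal granules, had 15.3, 14.1 and 12.4 CPM in exposed L4, against 53.9, 48.2 and 48.9 CPM in exposed L3. Of the Cd-responsive genes, *cdr-1* had 5.57, 11.04 and 13.4 CPM in exposed L4, against 39.0, 40.1 and 37.3 CPM in exposed L3 (log2 fold change -1.95) and T08G5.1 had 2.65, 4.2 and 4.81 CPM in exposed L4, against 23.9, 23.9 and 24.5 CPM in exposed L3 (log2 fold change -2.62). F56C3.9 and K04A8.20 fell by smaller amounts, with log2 fold changes of -1.14 and -1.59.

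The 1 up-regulated member was *aip-1*, an arsenite-inducible protein associated with the proteasome, which had 114, 123 and 125 CPM in exposed L4, against 18.99, 18.7 and 20.6 CPM in exposed L3 (log2 fold change 2.63 ± 0.09, SE, edgeR adjusted p = 2.82e-09). The genes for making and moving phytochelatins, the peptides that bind Cd, did not pass the threshold. *pcs-1*, phytochelatin synthase, had 24.8, 26.2 and 26.8 CPM in exposed L4, against 21.8, 23.3 and 22.2 CPM in exposed L3 (log2 fold change 0.21, SE 0.09). *gcs-1*, the first enzyme of glutathione synthesis, and *hmt-1*, the phytochelatin transporter, had log2 fold changes of 0.12 and 0.13, and their libraries overlapped between the groups.

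Of 17 heat shock genes tested, 5 were up-regulated (29.4%, near the 25.5% of all genes) and 1 was down-regulated, with a median log2 fold change of -0.12. With upper-quartile scaling 3 were up-regulated and 2 down-regulated. *hsp-70* had 145, 162 and 166 CPM in exposed L4, against 7.34, 6.12 and 6.31 CPM in exposed L3 (log2 fold change 4.58 ± 0.11, SE, edgeR adjusted p = 3.77e-10). *hsp-16.2* had 64.1, 63.6 and 66.5 CPM in exposed L4, against 11.9, 8.09 and 9.27 CPM in exposed L3 (log2 fold change 2.73 ± 0.14, SE, edgeR adjusted p = 5.19e-08), and *hsp-16.41* had 100.4, 68.5 and 70.1 CPM in exposed L4, against 15.2, 13.8 and 13.3 CPM in exposed L3. *hsp-4*, the chaperone of the endoplasmic reticulum, had 606, 566 and 566 CPM in exposed L4, against 221, 249 and 263 CPM in exposed L3 (log2 fold change 1.25). *hsp-12.1*, a small heat shock gene, was the 1 that fell, with 8.37, 3.81 and 3.93 CPM in exposed L4, against 20.3, 20.4 and 25.2 CPM in exposed L3. The *hsp-16* genes are similar pairs, so reads may be shared among them.

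Detoxification genes fell more often than they rose. Of 66 cytochrome P450 genes 34 were down-regulated and 7 up-regulated (51.5 and 10.6%, median log2 fold change -1.09). Of 61 UDP-glucuronosyltransferase genes 33 were down-regulated and 2 up-regulated (54.1 and 3.28%, median -1.04). Of 42 glutathione S-transferase genes 16 were down-regulated and 3 up-regulated (38.1 and 7.14%, median -0.53). Among all genes 22.6% were down-regulated and 25.5% up-regulated. *cyp-13A2* had 5.29, 6.56 and 6.36 CPM in exposed L4, against 126, 125 and 122 CPM in exposed L3 (log2 fold change -4.35 ± 0.10, SE, edgeR adjusted p = 3.89e-10). *ugt-57* had 2.53, 1.16 and 1.6 CPM in exposed L4, against 43.2, 57.3 and 53.3 CPM in exposed L3, and *gst-24* had 5.26, 4.92 and 5.57 CPM in exposed L4, against 25.8, 27.97 and 30.9 CPM in exposed L3. The exceptions included *cyp-31A2*, an enzyme of eggshell lipid synthesis, with 45.1, 61.0 and 56.5 CPM in exposed L4, against 4.74, 5.42 and 4.91 CPM in exposed L3 (log2 fold change 3.43 ± 0.14, SE, edgeR adjusted p = 1.2e-08), and *ugt-44*, with 66.1, 69.0 and 71.1 CPM in exposed L4, against 8.93, 11.9 and 14.4 CPM in exposed L3.

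Of 10 superoxide dismutase, catalase and peroxiredoxin genes 2 were down-regulated (20%, near the 22.6% of all genes) and 0 up-regulated. *ctl-2*, the peroxisomal catalase, had 98.0, 94.9 and 91.8 CPM in exposed L4, against 251, 243 and 229 CPM in exposed L3 (log2 fold change -1.34), and *ctl-1* had 6.27, 7.62 and 6.96 CPM in exposed L4, against 25.8, 25.2 and 18.6 CPM in exposed L3. The C-type lectins, many of which respond to bacteria, were split almost evenly, with 36 of 139 tested up-regulated and 35 down-regulated, close to the background shares. *clec-73* had 68.6, 56.3 and 55.2 CPM in exposed L4, against 0.0252, 0.0319 and 0.0287 CPM in exposed L3, 3 counts in all at exposed L3, and its ratio of summed counts had a 95% counting interval of 717 to 10173. *clec-72*, its neighbour by name, had 7.97, 6.67 and 6.2 CPM in exposed L4, against 45.0, 57.5 and 48.7 CPM in exposed L3 (log2 fold change -2.86).

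Of 7 fatty acid desaturases 1 was up-regulated and 2 were down-regulated (14.3 and 28.6%, against 25.5 and 22.6% of all genes). *fat-2*, which makes linoleic acid, had 309, 399 and 384 CPM in exposed L4, against 777, 775 and 785 CPM in exposed L3 (log2 fold change -1.097 ± 0.10, SE, edgeR adjusted p = 4.71e-06). *fat-3*, a desaturase further down the same pathway, had 109.8, 129.9 and 127 CPM in exposed L4, against 286, 283 and 273 CPM in exposed L3 (log2 fold change -1.197 ± 0.09, SE, edgeR adjusted p = 7.97e-07). *fat-7*, a stearoyl desaturase, had 8.43, 9.99 and 7.95 CPM in exposed L4, against 1.36, 1.85 and 2.41 CPM in exposed L3 (log2 fold change 2.23). The call of *fat-2* was lost without exposed L4 replicate 1, at a log2 fold change of -0.98, which left 1 desaturase called lower, as with RLE size factors and DESeq2. Of the lysosomal lipases 2 of 7 were down-regulated (28.6%, against 22.6% of all genes) and 0 up-regulated. *lipl-6* had 1.67, 1.18 and 1.25 CPM in exposed L4, against 32.2, 29.3 and 29.8 CPM in exposed L3, and *lipl-4* had 2.1, 2.47 and 2.59 CPM in exposed L4, against 9.13, 8.09 and 7.81 CPM in exposed L3.

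Few housekeeping genes were called. Of 79 cytosolic ribosomal protein genes 2 were up-regulated and 2 down-regulated, with a median log2 fold change of -0.41. Their share of counts was 11.4, 10.9 and 11.3% in exposed L4, against 15.2, 15.5 and 16.5% in exposed L3 (exact permutation p = 0.1). The paralogs *rpl-11.1* and *rpl-11.2* moved in opposite directions: *rpl-11.1* had 983, 1108 and 1136 CPM in exposed L4, against 431, 444 and 457 CPM in exposed L3 (log2 fold change 1.28 ± 0.08, SE, edgeR adjusted p = 3.73e-07), and *rpl-11.2* had 846, 770.4 and 773 CPM in exposed L4, against 1999.8, 2204 and 2322 CPM in exposed L3 (log2 fold change -1.45 ± 0.09, SE, edgeR adjusted p = 1.9e-07). *rpl-25.1* fell like the second, with a log2 fold change of -1.17. Of 33 proteasome genes 1 was up-regulated and 0 down-regulated (median 0.28).

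Of 33 nuclear genes for the respiratory chain and ATP synthase, 3 were up-regulated and 0 down-regulated (median -0.42). The 0 became 7 with upper-quartile scaling, and 1 with library totals, with a stricter filter, without exposed L4 replicate 1 and without exposed L3 replicate 1. Of 12 genes of the mitochondrial genome 8 were down-regulated and 0 up-regulated (median -1.17), and the difference between both sets was not tested. *ctc-1*, cytochrome oxidase subunit I, had 2486, 2239 and 2169 CPM in exposed L4, against 7239.7, 6486 and 7229.7 CPM in exposed L3 (log2 fold change -1.60 ± 0.09, SE, edgeR adjusted p = 9.52e-08). *nduo-5*, a subunit of complex I, had 452, 377 and 376 CPM in exposed L4, against 1185, 1183 and 1084 CPM in exposed L3 (log2 fold change -1.52). The mitochondrial genome held 1.17, 0.961 and 0.951% of the counts in exposed L4, against 2.67, 2.48 and 2.58% in exposed L3.

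Markers of somatic tissues were examined beside these lists. Among all genes tested 25.5% were up-regulated and 22.6% down-regulated. None of 12 body wall muscle genes was called, and their log2 fold changes lay between -0.57 and 0.47. *unc-54*, the major myosin of body wall muscle, had 4332, 4821 and 4526 CPM in exposed L4, against 2840.0, 3629.6 and 3433 CPM in exposed L3, and *unc-52*, the perlecan of its basement membrane, had 501, 519 and 494 CPM in exposed L4, against 649, 808 and 783 CPM in exposed L3. Of 14 pan-neuronal genes 6 were down-regulated and 0 up-regulated (42.9 and 0%, median -0.80). *ric-4*, the SNAP-25 homolog, had 25.5, 22.7 and 24.4 CPM in exposed L4, against 183, 84.8 and 88.9 CPM in exposed L3, with exposed L3 replicate 1 the highest, whereas the synaptobrevin gene *snb-1* had 174, 165 and 163 CPM in exposed L4, against 148, 159 and 153 CPM in exposed L3. Of 10 intestinal genes 1 was down-regulated and 0 up-regulated (10 and 0%), below both shares of all genes: *cpr-1*, a cysteine protease, had 294, 261 and 268 CPM in exposed L4, against 1142, 1314 and 1272 CPM in exposed L3 (log2 fold change -2.18 ± 0.09, SE, edgeR adjusted p = 1.41e-08). The esterase *ges-1* had 32.8, 35.4 and 34.9 CPM in exposed L4, against 66.4, 69.2 and 66.0 CPM in exposed L3. Of 6 pharyngeal muscle genes 2 were down-regulated and 0 up-regulated (33.3 and 0%), among them *tnc-2*, with 35.1, 31.9 and 31.5 CPM in exposed L4, against 153, 101 and 108 CPM in exposed L3. The pharyngeal myosin *myo-2* had 391, 429.6 and 415 CPM in exposed L4, against 349, 615 and 589 CPM in exposed L3. Of 9 male markers 4 had enough counts to be tested, of which 1 was called higher and 3 were called lower, and 0 with a stricter filter. The list held 2.25e-04 to 3.64e-04% of the counts in exposed L4, against 3.93e-04 to 4.58e-04% in exposed L3: the seminal gene *plg-1*, the 1 called higher, had 1.03, 0.875 and 1.11 CPM in exposed L4, against 0.353, 0.478 and 0.402 CPM in exposed L3, and the male neuron gene *cwp-5*, called lower, had 0.426, 0.232 and 0.208 CPM in exposed L4, against 0.984, 1.02 and 0.631 CPM in exposed L3. The part of changing tissue proportions in the lists above was not tested.

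The chromosomes were unequal. On the X chromosome 13.2% of 2364 genes tested were up-regulated and 31.6% down-regulated, against 27.6 and 21.1% of the 14274 autosomal genes. Chromosomes I and IV had the largest shares of up-regulated genes, 31.04 and 31.14%, and chromosome V had the largest autosomal share of down-regulated genes, 30.5%. None of the msp, sperm, oocyte or germ granule genes listed lies on X, whereas 28 of the listed *col* genes do, *col-19* among them. The vitellogenin genes *vit-2* and *vit-5*, up-regulated with log2 fold changes of 11.58 and 11.66, also lie on X, whereas *vit-6* lies on chromosome IV. The share of counts on X was 10.04, 10.27 and 10.10% in exposed L4, against 11.3, 11.7 and 11.5% in exposed L3.

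The same stage comparison without Cd shares no library with the exposed one. In unexposed worms 9305 of 16487 genes tested (56.4%) were called, 4701 up (28.5%) and 4604 down (27.9%). Over the 16257 genes tested in both, Pearson's r between the log2 fold changes was 0.956, a description across genes, which are not independent replicates. Of these genes 3777 were up-regulated in both comparisons and 3046 were down-regulated in both, while 822 were called in exposed worms alone and 2229 in unexposed worms alone. The counts of 822 and 2229 do not by themselves show a difference between the comparisons. Some germ line and cell cycle lists had fewer genes up-regulated in exposed than in unexposed L4. The counts were 18 and 20 of 21 recombination genes and 17 and 19 of 20 germ granule genes. Mitotic genes gave 18 and 20 of 22, and DNA replication genes 17 and 25 of 27. Of 20 sex fate genes 5 were up-regulated and 2 down-regulated in exposed L4, against 10 and 1 in unexposed L4. Like counts came from 4 lists: all 31 msp genes tested, all 6 vitellogenins, 27 of 28 oocyte genes and all 19 synapsis genes were up-regulated in unexposed L4 too. Their medians were 11.13, 11.88, 5.30 and 2.29, against 11.29, 11.40, 4.63 and 1.73 in the exposed comparison. The median difference per gene, exposed minus unexposed, was 0.17, -0.40, -0.55 and -0.45 (all genes, -0.007). Of these 4 lists 0 genes passed the test of the difference, which also needs a log2 difference of at least 1. The same held for the recombination, germ granule, mitotic, DNA replication and sex fate lists. The oocyte gene *puf-5* fell just short at -0.96 (edgeR adjusted p = 0.0169), and it was called lower with RLE size factors (-1.07) and with DESeq2 (-1.07).

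The difference between the comparisons was tested directly, as the exposed stage difference minus the unexposed one. It passed for 1072 of 17196 genes (6.23%): 963 (5.6%) had a higher and 109 (0.634%) a lower stage difference in exposed worms. Without exposed L4 replicate 1 the count was 702, without unexposed L3 replicate 1 it was 635 and without unexposed L3 replicate 2 it was 698. The 109 lower genes became 318 without unexposed L3 replicate 3, 37 without unexposed L3 replicate 2, 41 without unexposed L4 replicate 2, 50 without exposed L4 replicate 1, 61 without exposed L3 replicate 2 and 63 without unexposed L3 replicate 1. The 963 higher genes became 572 without unexposed L3 replicate 1. There were 95 genes up-regulated in exposed and down-regulated in unexposed worms, of which 94 passed the test of the difference, and 0 genes of the opposite kind. Without exposed L4 replicate 1 the 95 became 45.

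**Figure D4:**
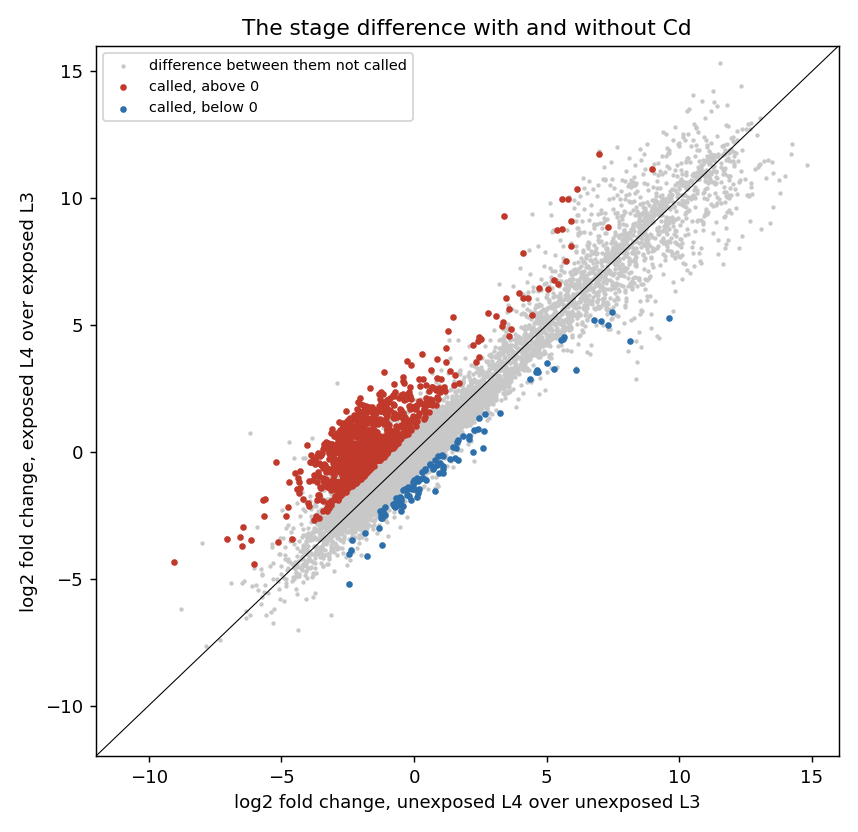
Log2 fold change of exposed L4 over exposed L3 (vertical) against that of unexposed L4 over unexposed L3 (horizontal), 1 point per gene for the 16257 genes tested in both, with the line of equal values. Red points have a stage difference that was called higher in exposed worms and blue points one that was called lower; most red points lie where the unexposed stage difference is below 0.

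The cuticle gene lists other than the furrow collagens were called higher in larger shares than all genes, and the *col* genes were called lower in a larger share too. Of 133 *col* genes in this test 55 were higher and 5 lower (5.6 and 0.634% of all genes), and 10 were up-regulated in exposed but down-regulated in unexposed worms. The counts were 9 higher and 0 lower of 13 body shape collagens, 23 and 0 of 48 hedgehog-related genes and 12 and 0 of 26 patched-related genes. They were 13 and 0 of 31 *nas* proteases, 11 and 0 of 30 cuticlins, 7 and 0 of 12 *abu* genes and 5 and 0 of 25 moult genes. Of the furrow collagens 0 of 6 were called, with a median difference of -0.20. Unexposed L3 replicate 3 stood apart from replicates 1 and 2 on these lists. Furrow collagens held 0.194 to 0.223% of the counts in exposed L3, against 0.0792, 0.0748 and 0.217% in unexposed L3 replicates 1, 2 and 3, and moult genes held 0.584 to 0.605%, against 0.349, 0.343 and 0.626%. Cuticlins held 0.0472 to 0.0709%, against 0.274, 0.273 and 0.1398%, and *abu* genes 0.01799 to 0.0418%, against 0.135, 0.1202 and 0.0437%. Without that library 1555 genes passed the test of the difference in place of 1072. The differences of *abu-1*, *abu-11*, *col-144*, *col-142* and *col-80* were each lost without exposed L4 replicate 1, unexposed L4 replicate 2 or unexposed L3 replicate 1 or 2. Without exposed L3 replicate 1 those of *abu-1*, *abu-11* and *col-144* were lost, without replicate 2 those of *col-144*, *col-142* and *col-80*, and without replicate 3 those of *abu-1* and *col-144*.

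The levels show in which libraries these genes departed. On a scale set over all 12 libraries, *dpy-13* had 1204, 547 and 578 CPM at L4, against 429, 483 and 787 CPM at L3 in exposed worms and 467, 234.9 and 496 CPM at L4, against 3653, 3096 and 1608 CPM at L3 in unexposed worms (difference of the log2 fold changes 3.26 ± 0.55, SE, edgeR adjusted p = 0.00468). The unexposed L3 libraries were the high ones, and every library of the other 3 groups lay below them. *dpy-5* and *dpy-4* had the same form, with differences of 3.30 and 3.17 on the log2 scale. *col-73* had 1394, 667 and 705 CPM at L4, against 288, 339 and 520.0 CPM at L3 in exposed worms and 625, 271 and 577 CPM at L4, against 2991, 2754 and 1280.5 CPM at L3 in unexposed worms (difference of the log2 fold changes 3.52 ± 0.56, SE, edgeR adjusted p = 0.00417). *grl-16* had 777, 345 and 366 CPM at L4, against 132, 173 and 242 CPM at L3 in exposed worms and 309, 140.0 and 303 CPM at L4, against 1510.1, 1391 and 606 CPM at L3 in unexposed worms (difference of the log2 fold changes 3.67 ± 0.58, SE, edgeR adjusted p = 0.00417). For both genes the mean of unexposed L3 was again the highest, although exposed L4 replicate 1 lay above unexposed L3 replicate 3. Exposed L3 lay below exposed L4 for both, so the stage difference changed sign. Within exposed worms *col-73* lost its call without exposed L4 replicate 1 (log2 fold change 0.85). That call was also lost with upper-quartile scaling (0.95) and with a test against a fold of 2. *cut-4* differed in that exposed L3 was the low group, with 22.1, 17.2 and 16.6 CPM at L4, against 1.64, 2.54 and 3.52 CPM at L3 in exposed worms and 12.06, 9.37 and 12.2 CPM at L4, against 13.5, 12.7 and 5.42 CPM at L3 in unexposed worms (difference of the log2 fold changes 2.77 ± 0.45, SE, edgeR adjusted p = 0.00426).

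The 5 genes with the highest difference at 10 CPM or more were Y69A2AR.14, C27D9.2, M110.7, W08E12.2 and E01G6.1, at 4.78, 4.25, 4.22, 4.10 and 4.07. Y69A2AR.14 had 14.3, 10.3 and 10.2 CPM in exposed L4, against 0 counts in exposed L3, so its fitted value depends on the handling of zeros. C27D9.2 overlaps C27D9.1 on the other strand, a gene with more counts. W08E12.2 was not called within exposed worms and had 1 high library, with 51.6, 11.4 and 14.2 CPM in exposed L4, against 11.3, 9.52 and 20.5 CPM in exposed L3. The difference was no longer called without exposed L4 replicate 1 or 3, exposed L3 replicate 1, 2 or 3, unexposed L4 replicate 2 or 3 or unexposed L3 replicate 2 or 3 for Y69A2AR.14, and without exposed L4 replicate 1, exposed L3 replicate 1 or 2 or unexposed L3 replicate 1 or 2 for W08E12.2. With library totals alone that of Y69A2AR.14 was lost too, and with a test against a fold of 2 those of Y69A2AR.14, W08E12.2 and M110.7.

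Metal genes were among those with the lowest differences. Of 30 genes of the metal list in this test 5 were lower and 1 was higher, against 0.634 and 5.6% of all genes. The list includes genes that the study named as responding to Cd in these samples, so this count is not independent evidence of a direction either. *mtl-1* had 14.8, 18.1 and 22.6 CPM at L4, against 233, 211 and 256 CPM at L3 in exposed worms and 2.3, 3.47 and 1.34 CPM at L4, against 5.11, 5.73 and 6.22 CPM at L3 in unexposed worms (difference of the log2 fold changes -2.39 ± 0.33, SE, edgeR adjusted p = 0.00369). Its level was highest in exposed L3, and exposed L4 was above both unexposed groups. *ftn-1* had 2.17, 2.11 and 2.19 CPM at L4, against 43.6, 33.3 and 33.1 CPM at L3 in exposed worms and 1.88, 5.66 and 3.37 CPM at L4, against 15.4, 10.01 and 13.8 CPM at L3 in unexposed worms (difference of the log2 fold changes -2.24 ± 0.42, SE, edgeR adjusted p = 0.00704). *hrg-1*, *cdr-1* and T08G5.1 had differences of -1.08, -1.38 and -1.36. The call of *hrg-1* was lost without unexposed L4 replicate 2 or unexposed L3 replicate 2, that of *cdr-1* without exposed L3 replicate 2, unexposed L4 replicate 3 or unexposed L3 replicate 2, and that of T08G5.1 without exposed L4 replicate 2, exposed L3 replicate 1, 2 or 3, unexposed L4 replicate 1, 2 or 3 or unexposed L3 replicate 1, 2 or 3. With a test against a fold of 2 the calls of these genes were lost, as were those of *ftn-1* and *aip-1*. *aip-1* was the higher one, with 111, 119.9 and 122 CPM at L4, against 18.5, 18.2 and 20.1 CPM at L3 in exposed worms and 82.6, 65.8 and 70.7 CPM at L4, against 29.8, 28.4 and 23.8 CPM at L3 in unexposed worms (difference of the log2 fold changes 1.22 ± 0.15, SE, edgeR adjusted p = 0.00369).

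Other genes in the lower group were not on the metal list, although the study lists F44E7.5 among the genes that Cd raised most at L3. *fat-2* had 302, 389.9 and 375 CPM at L4, against 756, 755 and 763 CPM at L3 in exposed worms and 568, 696 and 506 CPM at L4, against 537, 563 and 765 CPM at L3 in unexposed worms (difference of the log2 fold changes -1.02 ± 0.21, SE, edgeR adjusted p = 0.0105), and *fat-3* had a difference of -1.13. The call of *fat-2* was lost without exposed L4 replicate 1, unexposed L4 replicate 2 or unexposed L3 replicate 1 or 2, and that of *fat-3* without exposed L4 replicate 1, exposed L3 replicate 2, unexposed L4 replicate 2 or unexposed L3 replicate 2. With upper-quartile scaling (-0.96) and a stricter filter (-0.99) that of *fat-2* was lost too, and with a test against a fold of 2 those of both. F44E7.5, *acp-6* and Y39B6A.10 completed the 5 lowest with *mtl-1* and *ftn-1*. F44E7.5 had 42.8, 57.8 and 55.4 CPM at L4, against 48.7, 46.6 and 44.9 CPM at L3 in exposed worms and 46.6, 40.8 and 56.4 CPM at L4, against 9.09, 7.94 and 8.23 CPM at L3 in unexposed worms (difference of the log2 fold changes -2.36 ± 0.19, SE, edgeR adjusted p = 2.98e-04), so its stage difference was near 0 with Cd. *acp-6*, an acid phosphatase by name, had a difference of -1.94, and Y39B6A.10 one of -1.89, which was lost without exposed L4 replicate 1, exposed L3 replicate 1 or 2, unexposed L4 replicate 2 or 3 or unexposed L3 replicate 1, 2 or 3. With a test against a fold of 2 the calls of *acp-6* and Y39B6A.10 were both lost. *hsp-70* was higher, with 142, 158 and 162 CPM at L4, against 7.14, 5.95 and 6.14 CPM at L3 in exposed worms and 90.5, 63.2 and 57.3 CPM at L4, against 5.41, 7.47 and 5.37 CPM at L3 in unexposed worms (difference of the log2 fold changes 1.06 ± 0.24, SE, edgeR adjusted p = 0.0168). That call was lost without unexposed L4 replicate 2 or 3 or unexposed L3 replicate 2. It was also lost with RLE size factors (0.95), with DESeq2 (0.95) and with a test against a fold of 2. *hsp-16.2* followed at 1.12, and that call held in 9 of 20 alternatives.

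**Figure D5:**
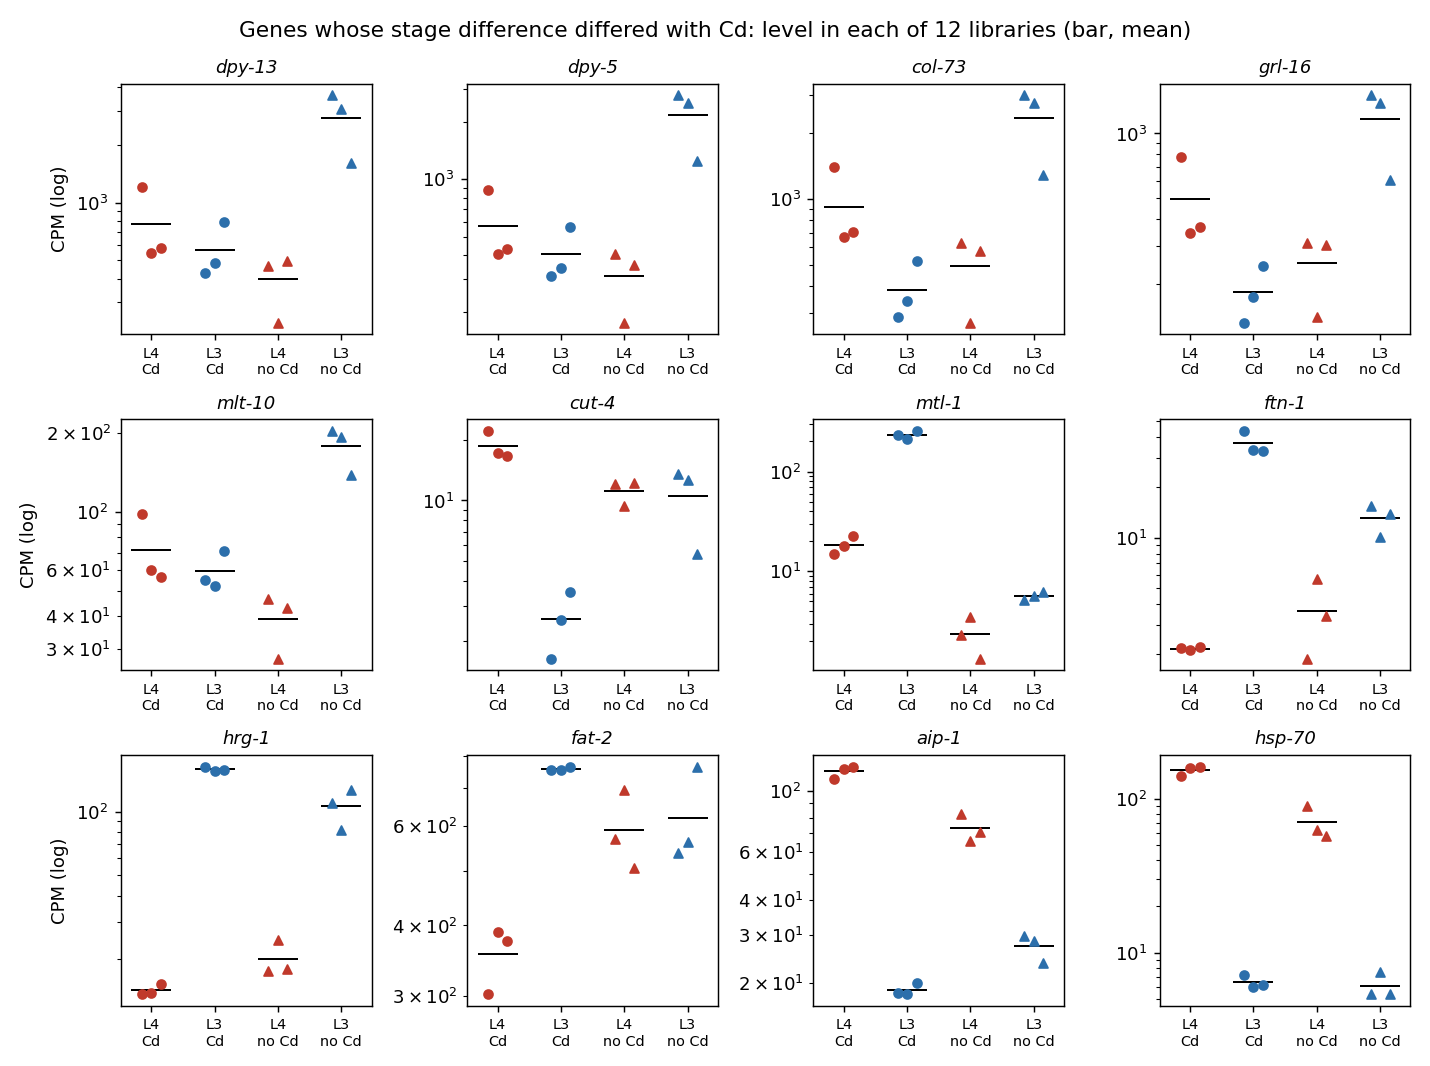
Level of 12 genes whose stage difference was called different between exposed and unexposed worms, in CPM on a log axis. Points are replicates 1 to 3 from left to right, with the mean as a bar, in the order exposed L4, exposed L3, unexposed L4, unexposed L3 (red L4, blue L3, circles with Cd, triangles without). Unexposed L3 is the highest group for *dpy-13*, *dpy-5*, *col-73*, *grl-16* and *mlt-10*; exposed L3 is the lowest group for *cut-4* and the highest for *mtl-1*, *ftn-1* and *hrg-1*; exposed L4 is the lowest group for *fat-2* and the highest for *aip-1* and *hsp-70*.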

How the data were processed

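Poly-A RNA of whole worms was sequenced as paired-end reads (Illumina HiSeq). The deposited files hold whole-number counts per gene, which the authors made by trimming with Trimmomatic 0.36, aligning to WBcel235 with STAR 2.5.2b and counting with featureCounts (Subread 1.5.2). Strand setting and treatment of multi-mapping reads are not given in the sources used here, so overlapping and near-identical genes are uncertain. Besides the overlaps given with single genes, exons of *bed-3*, *mei-1*, *lab-1*, *pcs-1* and *hmt-1* overlap genes with more counts on the other strand. An entry without a gene name, 0.0148 to 0.0983% of the counts in exposed libraries, was left out. In unexposed L3 replicate 1 it held 2.01% of the counts. That library also had the fewest counts in named genes of all 12, 23899991.

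Counts were fitted with edgeR 4.0.16 (limma 3.58.1, R 4.3.3): genes kept by filterByExpr, TMM factors, quasi-likelihood F test, Benjamini-Hochberg adjustment over all genes tested. A gene was called at an adjusted p of 0.05 or less and a fold of at least 2. The exposed contrast used 6 libraries, the unexposed contrast the other 6, and their difference all 12. CPM are counts per 1000000 with TMM factors, not corrected for gene length, so the ranking of genes by counts also depends on length. Shares of counts were compared by exact permutation. Fold bounds set a group of 0 counts at 3 counts, and intervals cover counting error only. Alternatives were other scalings, other filters, DESeq2 1.42.0, a fold-aware test, a replicate term and leaving out each library. The procedure was tested on simulated data.

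Named genes were the 10 with the largest fold in each direction at 50 CPM or more with groups that did not overlap, the 5 with the largest difference between the contrasts in each direction at 10 CPM or more, the 10 most abundant per group, and members of 40 gene lists. Members and lists were chosen with earlier results of these data known.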

Additional observations from a re-analysis of the deposited data

Results flagged for a closer look

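The stage difference of 42 of 229 genes named in the report differed between exposed and unexposed worms by edgeR's quasi-likelihood test of the difference itself, 30 with a value above 0 and 12 below 0. Over all genes tested 6.23% passed, 5.6% above 0 and 0.634% below 0. The named genes include the 5 in each direction picked for the largest called difference, and the others were chosen with earlier results known. The count and its split are therefore partly set by that choice. Values in brackets are the log2 fold change of exposed L4 over exposed L3 minus that of unexposed L4 over unexposed L3. Among cuticle and moult genes these were the collagens *col-48* (3.55), *col-73* (3.52), *col-109* (3.43), *col-14* (3.16), *col-104* (3.05), *col-41* (2.86) and *col-144* (1.17), the body shape collagens *dpy-5* (3.30), *dpy-13* (3.26), *dpy-4* (3.17), *rol-6* (2.39) and *sqt-3* (1.88), the hedgehog-related, cuticlin and *abu* genes *grl-16* (3.67), *grd-14* (3.42), *cut-4* (2.77), *abu-11* (2.74) and *abu-1* (2.60), and the moult genes *mlt-10* (2.46), *bed-3* (2.36) and *nhr-25* (1.25). Outside these groups stood *ugt-44* (1.97) and *egl-17* (1.40). The genes with the highest values were Y69A2AR.14 (4.78), C27D9.2 (4.25), M110.7 (4.22), W08E12.2 (4.10) and E01G6.1 (4.07). The chaperone genes and the arsenite-inducible gene above 0 were *aip-1* (1.22), *hsp-16.2* (1.12) and *hsp-70* (1.06). Below 0 were the metal genes *hrg-1* (-1.08), T08G5.1 (-1.36), *cdr-1* (-1.38), *ftn-1* (-2.24) and *mtl-1* (-2.39), and *fat-2* (-1.02), *fat-3* (-1.13), *col-80* (-1.35), *col-142* (-1.62), Y39B6A.10 (-1.89), *acp-6* (-1.94) and F44E7.5 (-2.36). Groups of 3 libraries are too small for a test of single outlying libraries.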

How the results depend on the processing

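The count of genes called in exposed L4 against exposed L3 stayed within 1.5 times of 8011 under every alternative but 1: with no fold minimum 13225 genes passed, 6652 up and 6573 down. Leaving out each library gave 7883 to 8504 genes, 4225 to 4401 up and 3636 to 4103 down, and in unexposed worms 9185 to 9559 genes. With upper-quartile scaling the share of calls that were up-regulated was 40.2%, against 53.1% with TMM. The test of the difference between exposed and unexposed worms was less stable. Leaving out each library gave 635 to 1555 genes, 572 to 1237 higher and 37 to 318 lower. A test against a fold of 2 (glmTreat) left 209 genes, 206 higher and 3 lower, whereas no fold minimum gave 1998 genes, 607 of them lower. The lower genes numbered 212 with RLE size factors, 271 with DESeq2 and 195 with no filter, and the cause was not tested. Genes up-regulated in exposed and down-regulated in unexposed worms numbered 9 with glmTreat. Of 228 named genes, 26 changed their call in the exposed contrast under at least 1 of 16 alternatives. Of the 186 that were called there, 18 lost the call at least once. Of 229 named genes in the test of the difference, 40 changed their call under at least 1 of 20 alternatives. Only 42 of the 229 were called there, and 24 of these 42 lost the call at least once. In both tests 0 called values changed sign. With upper-quartile scaling 10 neuronal genes were called lower in place of 6, 4 intestinal genes in place of 1 and 4 ribosomal protein genes in place of 2, and 1 glutathione S-transferase gene was called higher in place of 3. With a stricter filter 6 histone genes were called lower in place of 11 and 0 glutathione S-transferase genes higher in place of 3. The differences in shares of counts kept their sign for all 5 lists tested. Replicate numbers did not pair the libraries: deviations of same-numbered exposed libraries correlated at -0.05, 0.11 and -0.12, and not every library correlated best with its own number. A replicate block gave 7945 calls in exposed worms, 9225 in unexposed worms and 1120 in the test of the difference. With 3 libraries a group, and replicate origin unknown, genes with few counts in exposed L3 have fold changes known only as bounds.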

Other observations

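Some subunits of housekeeping complexes had paralogs with unlike log2 fold changes. In the ATP synthase, *asb-1* had 151, 179 and 190.4 CPM in exposed L4, against 82.0, 76.8 and 85.2 CPM in exposed L3 (log2 fold change 1.09 ± 0.10, SE, edgeR adjusted p = 4.11e-06), whereas its paralog *asb-2* had 427, 438 and 444 CPM in exposed L4, against 717, 780.4 and 776 CPM in exposed L3 (log2 fold change -0.80). In succinate dehydrogenase, *sdha-2* had 76.7, 92.9 and 93.7 CPM in exposed L4, against 35.4, 31.9 and 36.2 CPM in exposed L3 (log2 fold change 1.35 ± 0.10, SE, edgeR adjusted p = 1.06e-06), whereas *sdha-1* had 146, 161 and 157 CPM in exposed L4, against 221, 242 and 238 CPM in exposed L3 (log2 fold change -0.59). In complex III, *ucr-2.3* had a log2 fold change of 1.39, against -0.77 for *ucr-2.1*. Exons of *ucr-2.1* overlap *sams-1* on the same strand and those of *ucr-2.3* overlap *zer-1* on the other strand, both genes with more counts. In the proteasome lid, *rpn-6.2* had 33.1, 31.9 and 34.8 CPM in exposed L4, against 8.05, 6.69 and 7.78 CPM in exposed L3 (log2 fold change 2.15 ± 0.11, SE, edgeR adjusted p = 8.01e-08), whereas *rpn-6.1* had 149.9, 177 and 171 CPM in exposed L4, against 149, 154 and 147 CPM in exposed L3 (log2 fold change 0.14). The 3 paralogs *asb-2*, *sdha-1* and *ucr-2.1* lie on chromosome X, whereas *asb-1*, *sdha-2* and *ucr-2.3* lie on autosomes. With upper-quartile scaling *asb-1* was not called (0.76), as also with glmTreat, and *asb-2* (-1.13) and *ucr-2.1* (-1.11) were called lower. These members were picked after their values were seen, so no test of the pattern was made, and reads shared between paralogs were not examined.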
